A study of Mus musculus with 8 samples.

Results

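The cytosolic ribosomal protein genes encode the protein parts of the ribosome that works in the cytosol. They were followed in Paneth cells (PCs), which sit at the bottom of small intestinal crypts and secrete antimicrobial proteins. Members were the protein-coding genes whose symbols are Rpl, Rps or Rplp followed by a digit, plus Rpsa, without the kinases named Rps6k and without symbols carrying -ps. By this rule 91 of 55414 genes in the count table were members. The standard components, here called canonical, made up 77 of them, with 31 of the small subunit, 43 of the large subunit and 3 of the stalk (Rplp0, Rplp1 and Rplp2). The other 14 symbols were paralogs, retrogenes and the ribosomal protein binding gene Rps19bp1. The symbol rule leaves out a few true components, such as Fau and Rack1.

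PCs were purified by fluorescence-activated cell sorting from the small intestine of C57BL/6J mice, and each of the 8 libraries came from 1 mouse. In 4 samples the mice drank Milli-Q water, and in 4 they drank water with 25 mM ZnSO4, for 7 days in both groups. Every mouse then received an injection of tumor necrosis factor (TNF), and cells were taken 3 hours later, so that both groups carry the cytokine treatment and no untreated sample was analysed here. RNA-seq was done on polyadenylated RNA with a strand-specific kit.

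A ribosome needs each of its proteins in about equal number, and the genes are scattered over the genome and kept in step largely at translation. Most of their mRNAs begin with a C followed by a stretch of C and U, the terminal oligopyrimidine (TOP) motif, through which the mTOR kinase controls their translation. Some canonical genes have a paralog whose product can take the same place in the ribosome. In cells that secrete as much as PCs, ribosomes lie on a dense rough endoplasmic reticulum.

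The start sites are shown because they hold a feature that the symbol rule did not use. RefSeq start regions (GRCm38.p6) matched 67 of the 91 members. In the window from 30 bases before to 30 bases from the start, on the strand of the gene only, a C followed by at least 7 C or T stood in 35 of these 67 genes (52.2%) and in 5570 of all 27025 genes with a start region (20.6%). The stricter pattern, a C at the annotated start base followed by 4 C or T, stood in 14 of the 67 members (20.9%) against 3.01% of all genes. Among 69 mitochondrial ribosomal protein genes the longer run stood in 17 (24.6%) and the stricter pattern in 0. These counts describe letters at annotated starts, which can lie some bases away from the true start. Windows are printed from 5′ to 3′ with the run in capitals, for Rps6 (chr4:86857338-86857397, minus strand), Rps27 (chr3:90213619-90213678, minus strand), Rplp2 (chr7:141447621-141447680, plus strand) and Rpl22l1 (chr3:28805478-28805537, plus strand). In the first 3 the annotated start base lies inside the run and begins the stricter pattern, and in the paralog Rpl22l1 the run begins after the annotated start. The windows are examples and not typical of all members. The canonical Rpsa had neither pattern, and the stricter one stood in 13 of 57 canonical members (22.8%) and 1 of 10 others (10%).
Rps6: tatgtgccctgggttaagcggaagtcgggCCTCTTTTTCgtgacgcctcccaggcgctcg
Rps27: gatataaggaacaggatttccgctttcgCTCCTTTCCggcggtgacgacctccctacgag
Rplp2: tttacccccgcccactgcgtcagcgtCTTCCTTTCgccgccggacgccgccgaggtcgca
Rpl22l1: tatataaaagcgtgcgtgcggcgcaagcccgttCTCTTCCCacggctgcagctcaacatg

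The coding stretches of a canonical gene and its paralog are shown because they decide whether reads of the 2 can be told apart. Capitals mark the bases that differ within the pair. Rps27 lies on GRCm39 chr3:90119819-90120977 (minus strand) and Rps27l on chr9:66853340-66856808 (plus strand), and the stretch covers coding bases 31 to 90 of both, of which 14 of 60 differed. Rpl22 lies on chr4:152410150-152418542 (plus strand) and Rpl22l1 on chr3:28859585-28861573 (plus strand), with 22 of 60 bases differing between coding bases 37 to 96 of the first and 19 to 78 of the second. Over the whole aligned coding sequence, 76.2% of bases were identical for Rps27 and Rps27l and 73.3% for Rpl22 and Rpl22l1.
Rps27: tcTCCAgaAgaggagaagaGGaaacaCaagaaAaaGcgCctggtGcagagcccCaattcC
Rps27l: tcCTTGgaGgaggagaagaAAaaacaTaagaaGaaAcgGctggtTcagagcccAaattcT
Rpl22: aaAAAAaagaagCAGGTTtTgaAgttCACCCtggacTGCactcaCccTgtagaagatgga
Rpl22l1: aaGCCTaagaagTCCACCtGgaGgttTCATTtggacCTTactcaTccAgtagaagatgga

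Library totals ran from 10623658 to 15101627 counts. Levels are given as CPM, which divides counts by library sizes after TMM normalization (trimmed mean of M-values). A count of 0 allows a level of up to 0.178 to 0.369 CPM, which 3 counts correspond to. The PC markers summed to 440177 to 775818 CPM with water and 423626 to 521000 CPM with zinc, highest in water replicates 3 and 4 (775818 and 619851 CPM). Of the 12 PC markers 11 were lower with zinc, with a median log2 fold change of -0.30 that became 0.064 without these 2 libraries, and 0 were called. Immune and stromal markers summed to 45.8 to 91.5 CPM with water and 30.2 to 41.6 CPM with zinc, without overlap. Only 2 of these 15 markers had enough counts to be tested. Of these, 1 differed by -1.55 ± 0.280 (SE) on the log2 scale, without overlap of the groups. The other differed by -0.07 ± 0.249 (SE), with overlap, so the gap in the sum rests largely on 1 gene. Cd8a, Epx, Col1a1, Col3a1 and Acta2 were among those at 0 counts. Stem and progenitor markers summed to 465 to 660 CPM with water and 534 to 1157 CPM with zinc, highest in zinc replicates 1 and 3 (1157 and 1138 CPM). Enterocyte markers summed to 341 to 393 CPM with water and 355 to 846 CPM with zinc, highest in zinc replicate 3. For stem and enterocyte markers alike, zinc replicates 1 to 3 summed above every water library and zinc replicate 4 lay within the water range. Of 11 tested stem and progenitor markers 10 were higher with zinc, as were all 9 tested enterocyte markers. Their median log2 fold changes were 0.96 and 0.86, or 0.79 and 0.89 without water replicates 3 and 4. At an unadjusted p under 0.05 (edgeR), 6 and 1 were higher, against 6.42% of all genes, and 0 were called. Goblet cell markers summed to 5520 to 7611 CPM with water and 8703 to 11912 CPM with zinc, without overlap. Single goblet markers went both ways, with 8 of the 12 higher and 4 lower with zinc, a median log2 fold change of 0.40, and 0 called. The part of such cells in the results that follow was not tested. Zinc replicate 3 stood apart, with a correlation of log2 CPM of 0.847 to 0.903 with the other libraries, against 0.954 or more among those.

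Ribosomal protein genes held about 1% of the counts in every library. The share was 0.870%, 0.842%, 0.966% and 0.949% in water replicates 1 to 4, and 0.988%, 0.976%, 1.20% and 0.807% in zinc replicates 1 to 4. Zinc held both the highest library (replicate 3) and the lowest (replicate 4), so the groups overlapped. The means were 0.907% ± 0.0599 (SD, n = 4) with water and 0.993% ± 0.162 (SD, n = 4) with zinc, a difference of 0.0865 percentage points that is smaller than the SD of the zinc group. Without zinc replicate 3 the difference was 0.0166 percentage points, and without zinc replicate 4 it was 0.149. The 95% Wilson intervals of single libraries were narrow, 0.865% to 0.875% in water replicate 1 for example, and cover counting error only. In bulk samples, fewer cells of a type and less RNA per cell cannot be told apart.

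The order of the groups depended on the scale. Summed over the members, the level was 8057, 7568, 12746 and 10624 CPM in water replicates 1 to 4 and 9820, 8528, 11103 and 8183 CPM in zinc replicates 1 to 4. On this scale water replicate 3 was the highest library and water replicate 2 the lowest, so that the wider range was now that of water. The means were 9749 ± 2406 CPM (SD, n = 4) with water and 9409 ± 1331 CPM (SD, n = 4) with zinc, with zinc now the lower group. The TMM factors were 0.758 and 0.893 in water replicates 3 and 4 and 0.986 to 1.14 in the other 6 libraries. The alpha-defensin (Defa) genes, the main PC products, held 44.8% and 41.3% of counts in water replicates 3 and 4 and 34.04% to 39.4% in the others. With Defa genes taken out of the total, the shares were 1.498% ± 0.224 and 1.59% ± 0.298 (SD, n = 4 each), water first.

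**Figure D1:**
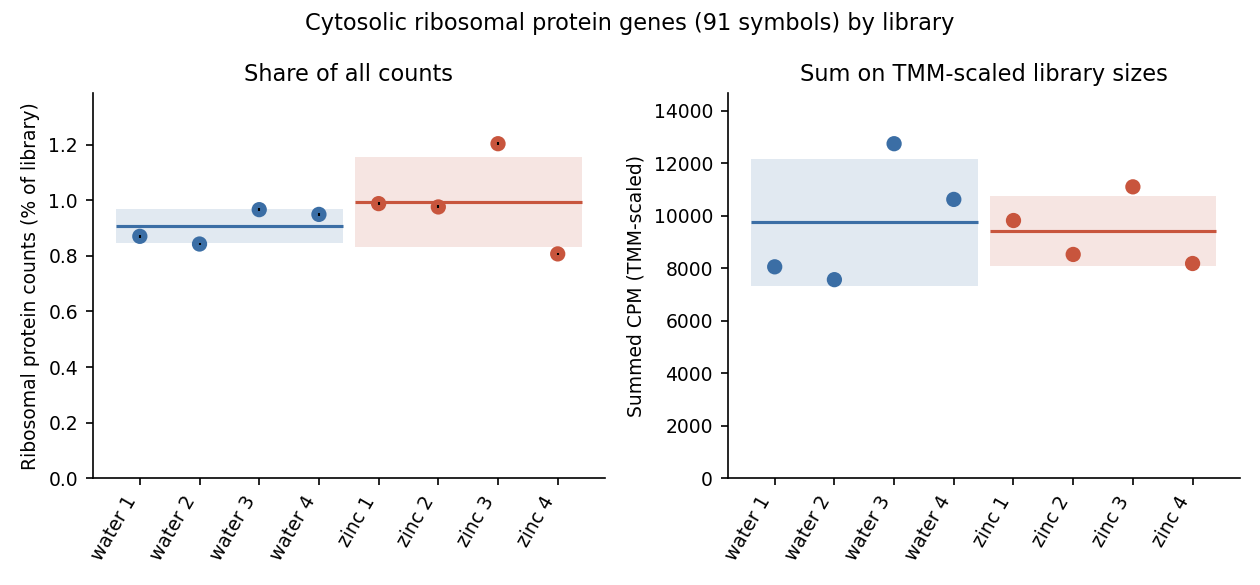
Cytosolic ribosomal protein genes by library, as the share of all counts in percent (left, with 95% Wilson intervals as black bars) and as summed CPM on TMM-scaled library sizes (right). Points are libraries, lines and bands the mean and SD of each group of 4; the groups overlap in both panels, with zinc replicate 3 highest on the left at 1.20% and water replicate 3 highest on the right at 12746 CPM.

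Small and large subunit genes moved together from library to library. The counts of the small subunit were 0.821 to 0.919 of those of the large subunit, with 0.863 ± 0.0444 with water and 0.848 ± 0.0168 with zinc (SD, n = 4 each). The mitochondrial ribosomal proteins, which build the separate ribosome of the mitochondrion, held 0.0731% to 0.0894% of counts.

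Rplp0, the core protein of the stalk that recruits translation factors, was the highest member with a mean of 557 CPM. Rpl4, which lines the exit tunnel for the growing chain, followed with 407 CPM. Rpl8, close to the peptidyl transferase centre, came next, and then Rpsa, a small subunit protein also known as the laminin receptor. Rps12, Rpl12, Rps2, Rps3 and Rpl41 were also among the 10 highest. Together the 10 highest genes held 29.3% of member counts, and 0 members were among the 20 genes of highest share in the whole table. Over the 74 canonical members that do not lie mostly within exons of another gene, mean levels ran 27.9-fold, from 19.96 CPM for Rpl27 to Rplp0, with a median of 107 CPM.

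Longer genes collect more reads, so levels between genes are compared per kilobase of coding sequence. On this scale the middle 50% of the same 74 genes lay between 161 and 303 CPM per coding kilobase, around a median of 227. Rpl41, whose coding sequence of 75 bases is the shortest, stood highest with 2832, a value that its untranslated parts can raise. Rpl27 was the lowest with 48.9. Across the 74 genes, mean CPM and coding length had a Spearman rho of 0.525, a description across genes that share the libraries.

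**Figure D2:**
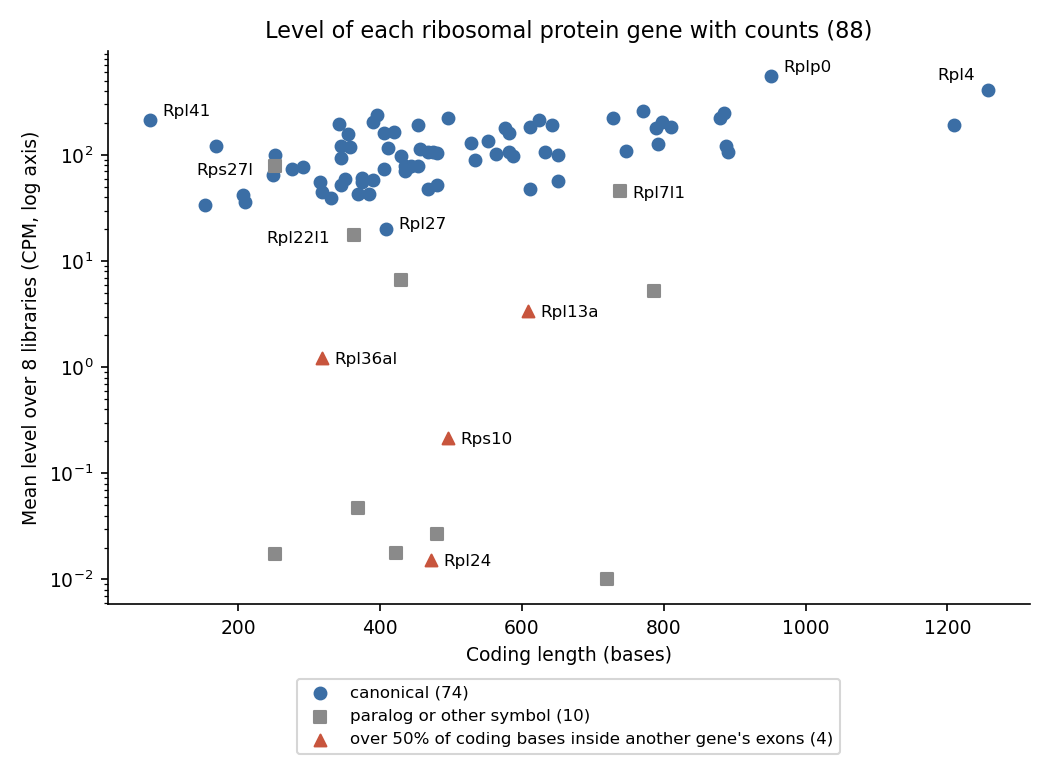
Mean level over the 8 libraries (CPM, log axis) against coding length in bases for the 88 members with counts. The canonical genes lie between 19.96 and 557 CPM, while Rpl13a, Rps10 and Rpl24, whose coding bases lie mostly in exons of another gene, lie far below them.

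Of the canonical members, 3 were far below the rest: Rpl13a with 345 counts over all libraries, Rps10 with 24 and Rpl24 with 1, against at least 2020 for each of the other 74. In each of them most coding bases lie, on the same strand, within exons of another annotated gene in GENCODE M39. The share was 97.5% for Rpl13a (chr7:44774982-44778263, minus strand), within the read-through gene Gm45713 and Mir5121. It was 92.1% for Rps10 (chr17:27849390-27855643, minus strand), within the read-through gene Gm49804, and 83.4% for Rpl24, within Gm28037. The paralog Rpl36al was of the same kind, with 95.3% of coding bases within the read-through gene Gm49383 and 125 counts. The overlapping genes themselves had 0 counts. The mRNA level of these 4 genes is therefore uncertain, since some counting tools give a read in exons of 2 genes to neither. How the reads were assigned here is not given in the sources used, and the part of the overlap in the low counts was not tested. In Rps10 the counts were 3, 7, 1 and 2 with water and 1, 5, 3 and 2 with zinc.

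Copies elsewhere in the genome are a further limit on single genes. Ribosomal protein mRNAs have left many processed pseudogenes, copies made through RNA. For 67 of the 91 members, over 50% of the 75-base words of the coding sequence occurred exactly somewhere else in GRCm39, and for 26 members every word did. The median was 80.2% of words over the members and 0 over the 78 mitochondrial ribosomal protein genes. Members with no such word numbered 6, Rps3 among them. The 316 annotated ribosomal protein pseudogenes held 1385 counts in all, 0.143% of the 965821 counts of members. A read without introns that matches both a gene and its copy may have been dropped or divided, so levels between members carry this uncertainty.

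The comparison of zinc with water asks whether zinc supplementation changes these transcripts in PCs under TNF. Of the 91 members, 81 passed the filter on low counts. By edgeR's quasi-likelihood test with Benjamini-Hochberg adjustment, 0 of the 81 were called at an adjusted p of 0.05, as were 0 of all 10707 genes tested (0%), and the smallest adjusted p of a member was 0.485. DESeq2 called 4 genes, of which 0 were members. At an unadjusted p under 0.05, 3 of the 81 members were lower with zinc (Rpl13a, Rps19bp1 and Rps27l), against 3.78% of all genes, and 0 were higher, against 6.42%. In 1 member, Rpl13a, every zinc library was below every water library, against 3.12% of all genes. The opposite, with every zinc library above, was seen in 0 members, against 2.76% of all genes.

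The fold changes of members were small. They ran from -0.68 to 0.19 on the log2 scale, zinc over water, and 78 of 81 lay within 0.5 of 0. Standard errors (SE) ran from 0.142 to 0.405. Lower values were given to 59 members (72.8%) and higher ones to 22, and the median was -0.09 beside 0.006 over all genes tested, of which 49.2% were lower. The median was -0.08 for the 30 tested small subunit genes (22 lower), -0.06 for the 42 large subunit genes (28 lower) and -0.06 for the 3 stalk genes (all lower).

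The direction of this median rested on single libraries. Without water replicate 3 it was 0.10, with 68 of 81 members higher with zinc, and without water replicates 3 and 4 it was 0.26, with 74 higher. Without zinc replicate 3 it was -0.17, with 10 higher. With an offset for transcript length and GC content fitted to all genes it was 0.05, with 53 higher. No call was made under any of these settings for a member that the text names.

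**Figure D3:**
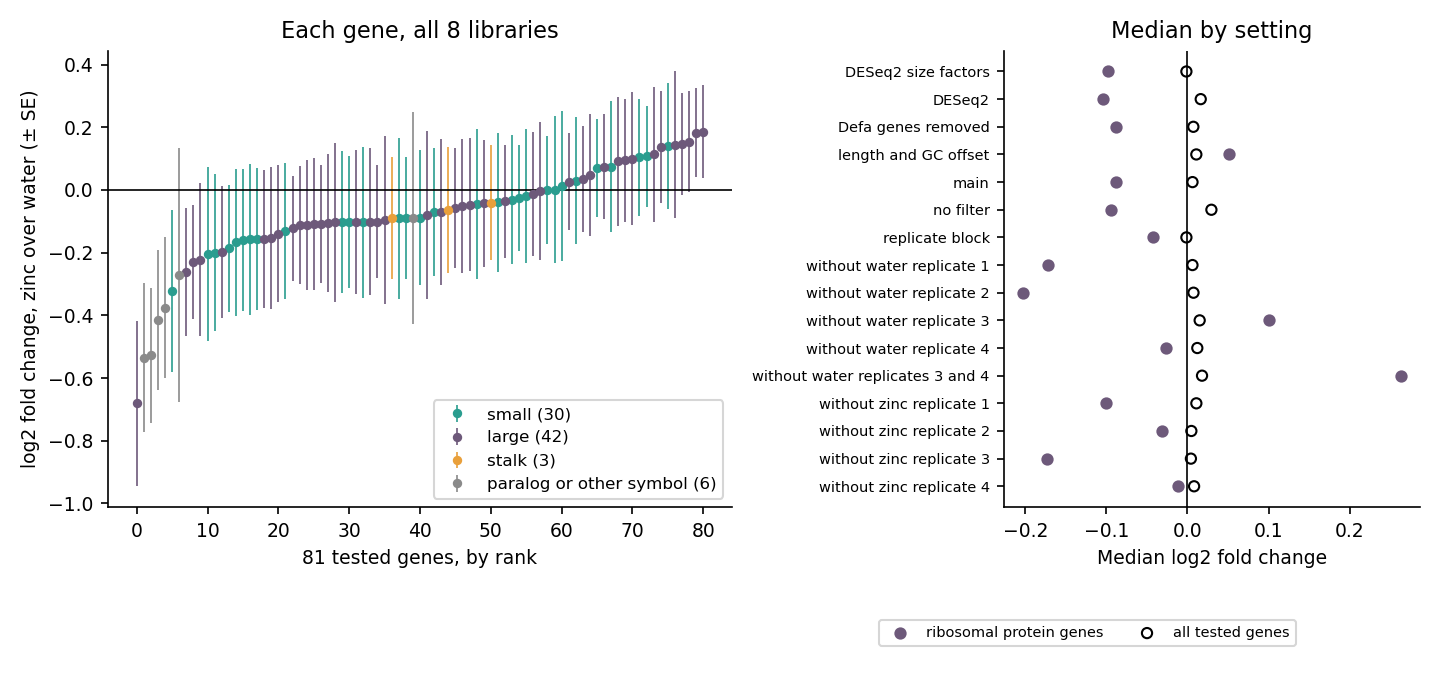
Left, log2 fold change of each of the 81 tested members, zinc over water, with its SE, ordered by value and coloured by subunit; 0 of them passed an adjusted p of 0.05. Right, the median log2 fold change of members (filled) and of all tested genes (open) under each setting, where the median of members lies between -0.20 and 0.26 and that of all genes stays near 0.

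Of the stalk genes, Rplp0 had 479, 438, 756 and 622 CPM in water replicates 1 to 4 and 584, 502, 570 and 500.4 CPM in zinc replicates 1 to 4. The zinc libraries all lay within the range of the water libraries, and the water libraries fell apart into a low pair (1 and 2) and a high pair (3 and 4). Rplp0 differed by -0.09 ± 0.195 (SE) on the log2 scale (adjusted p = 0.857, edgeR). Its partners Rplp1 and Rplp2, the acidic proteins bound to it, differed by -0.06 and -0.04.

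Rps12, a small subunit protein, spread the most between these water pairs among the 10 highest, with 167, 171, 401 and 275 CPM with water and 246, 196, 251 and 187 CPM with zinc. Its log2 fold change was -0.20 ± 0.276 (SE). Rpl41 had 179, 153, 343 and 240 CPM with water and 210, 170, 225 and 179 CPM with zinc, with a log2 fold change of -0.22 ± 0.244 (SE). In both genes the zinc libraries lay within the range of the water libraries. Rpl12, which forms the base of the stalk, differed by -0.16, and Rps3 at the mRNA entry site by -0.05.

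Rps6, the small subunit protein that S6 kinases phosphorylate downstream of mTOR, had 94.3, 85.6, 142 and 130 CPM with water and 112, 88.7, 125 and 99.3 CPM with zinc, with a log2 fold change of -0.09 ± 0.195 (SE). Rps27a, which is made as a fusion with ubiquitin, had 79.4, 78.9, 161 and 127 CPM with water and 110, 90.4, 122 and 94.1 CPM with zinc (-0.10 ± 0.240, SE). Rpsa differed by -0.07. For all 3 the groups overlapped and the SE exceeded the difference.

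Rpl4 and Rpl28, both of the large subunit, were among the members with the smallest p in the higher direction. Rpl4 had 377, 351, 392 and 402 CPM with water and 450, 391, 502 and 389 CPM with zinc. Its log2 fold change was 0.19 ± 0.149 (SE), with an adjusted p of 0.608 (edgeR). Water was tight here, and Rpl4, with a coding length of 1257 bases, had the longest coding sequence of the canonical genes. Rpl28 had 105, 94.7, 117 and 123 CPM with water and 130, 111, 135 and 122 CPM with zinc (0.18 ± 0.142, SE). Rpl8 and Rps2 differed by 0.03 and 0.07.

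The lowest fold change was that of Rpl13a, a large subunit protein known from the translational silencing complex of interferon-treated myeloid cells. It had 70, 55, 44 and 42 counts with water and 26, 30, 45 and 33 counts with zinc. In CPM these were 4.78, 3.27, 5.41 and 3.35 with water against 2.43, 2.15, 3.15 and 2.66 with zinc, without overlap, though water replicate 2 and zinc replicate 3 were close to each other. The log2 fold change was -0.68 ± 0.264 (SE), with an unadjusted p of 0.0265 and an adjusted p of 0.485 (edgeR). The overlap described above limits this gene, and its part in the difference was not tested.

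The members with a paralog or other symbol tended to lie lower than the canonical ones. All 6 that were tested had lower values with zinc, with a median log2 fold change of -0.39, against -0.07 over the 75 canonical members (53 lower). Leaving out water replicates 3 and 4 brought the median of the 6 to -0.07 and that of the canonical genes to 0.27, with 6 of 6 and 1 of 75 lower. Leaving out zinc replicate 3 brought the medians to -0.24 and -0.17. The 6 genes were grouped by symbol, and their difference from the canonical genes was not tested. Together, all 14 such symbols held 1.69% to 1.92% of member counts with water and 0.985% to 1.72% with zinc, lowest in zinc replicate 3.

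Rps27l, a close paralog of Rps27 known as a target of the tumour suppressor Trp53, had 70.4, 59.8, 136 and 106 CPM with water and 70.7, 61.0, 60.1 and 64.4 CPM with zinc. The zinc libraries were tight and lay at the level of water replicates 1 and 2, with only water replicates 3 and 4 above. The log2 fold change was -0.54 ± 0.238 (SE, unadjusted p = 0.0474, adjusted p = 0.485, edgeR). Rps27 itself had 74.2, 77.5, 158 and 134 CPM with water and 92.0, 79.0, 110 and 74.1 CPM with zinc (-0.32 ± 0.258, SE). Both copies were therefore high in the same water libraries.

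Rps19bp1, which encodes a protein that binds Rps19 and is also known as a regulator of the deacetylase Sirt1, had 6.22, 6.78, 10.9 and 7.67 CPM with water and 5.05, 5.23, 5.19 and 6.28 CPM with zinc. The groups overlapped only by zinc replicate 4, which lay just above water replicate 1. The log2 fold change was -0.53 ± 0.216 (SE, unadjusted p = 0.0336, adjusted p = 0.485, edgeR).

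The use of a paralog was measured as its share of the counts of a pair, which does not depend on the scaling between libraries. Of 9 pairs with both copies in the table, 5 had a mean of at least 10 counts of the paralog per library and were compared by a two-sided exact permutation test over all 70 assignments of 4 against 4, with a smallest possible p of 0.0286. In 0 of the 5 pairs did the share differ between the groups beyond the spread of the libraries. All 5 differences had the same direction, with a lower mean share of the paralog with zinc, although that of Rps4l turned to 0.072 percentage points without water replicate 2.

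Rpl22l1 and its counterpart Rpl22, a large subunit protein known to repress Rpl22l1, formed the pair with the largest difference. The share of Rpl22l1 was 30.6%, 33.0%, 32.2% and 36.9% with water and 22.9%, 27.8%, 16.02% and 38.0% with zinc. In 3 zinc libraries it lay below every water library, and in zinc replicate 4 above all of them. The means were 33.2% ± 2.68 and 26.2% ± 9.26 (SD, n = 4 each) and differed by -6.97 percentage points (exact permutation p = 0.229, 0.381 adjusted over the 5 pairs). Without zinc replicate 4 the difference was -10.9 percentage points, with an exact permutation p of 0.0571, the smallest that 4 against 3 allows, and over all alternatives p ran from 0.0571 to 0.533. Behind these shares, Rpl22l1 had 17.1, 14.6, 26.4 and 23.4 CPM with water and 15.6, 15.2, 11.0 and 19.1 CPM with zinc, and Rpl22 had 38.7, 29.6, 55.7 and 40.01 CPM with water and 52.5, 39.5, 57.7 and 31.1 CPM with zinc.

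Rpl7l1, a paralog of the large subunit gene Rpl7 that takes part in ribosome assembly, made up 22.2%, 20.1%, 21.6% and 22.9% of its pair with water and 18.5%, 19.9%, 11.4% and 22.8% with zinc. Zinc replicate 3 was far below the other 7 libraries. The means were 21.7% ± 1.20 and 18.1% ± 4.85 (SD, n = 4 each; exact permutation p = 0.171, adjusted p = 0.381). Rps27l made up 48.7%, 43.6%, 46.1% and 44.2% of the counts of Rps27 and Rps27l with water and 43.4%, 43.6%, 35.4% and 46.5% with zinc. The 2 copies thus held nearly equal parts of the counts, which need not be equal parts of the mRNA. Of the 75-base coding words, 100% occur elsewhere in the genome for Rps27 and 27.0% for Rps27l, and the part of this in the share was not tested. For this pair the means were 45.6% ± 2.29 and 42.2% ± 4.78 (SD, n = 4 each; exact permutation p = 0.229, adjusted p = 0.381). Zinc replicate 3 again had the lowest share.

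In the remaining pairs the paralog was a minor part. Rpl36al held 3.06% ± 0.603 with water and 2.46% ± 1.37 with zinc (SD, n = 4 each; exact permutation p = 0.429, adjusted p = 0.536) of its pair with the X-linked Rpl36a, with the limit on its counts given above. Rps4l held 3.10% ± 1.07 and 2.64% ± 0.988 (SD, n = 4 each; exact permutation p = 0.6, adjusted p = 0.6) of its pair with the X-linked Rps4x. Zinc replicate 3 was the lowest of the 8 libraries in 4 of the 5 pairs, the exception being Rps4l. Without zinc replicate 3 the differences came to -3.58 percentage points for Rpl22l1, -1.14 for Rps27l and -1.30 for Rpl7l1.

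**Figure D4:**
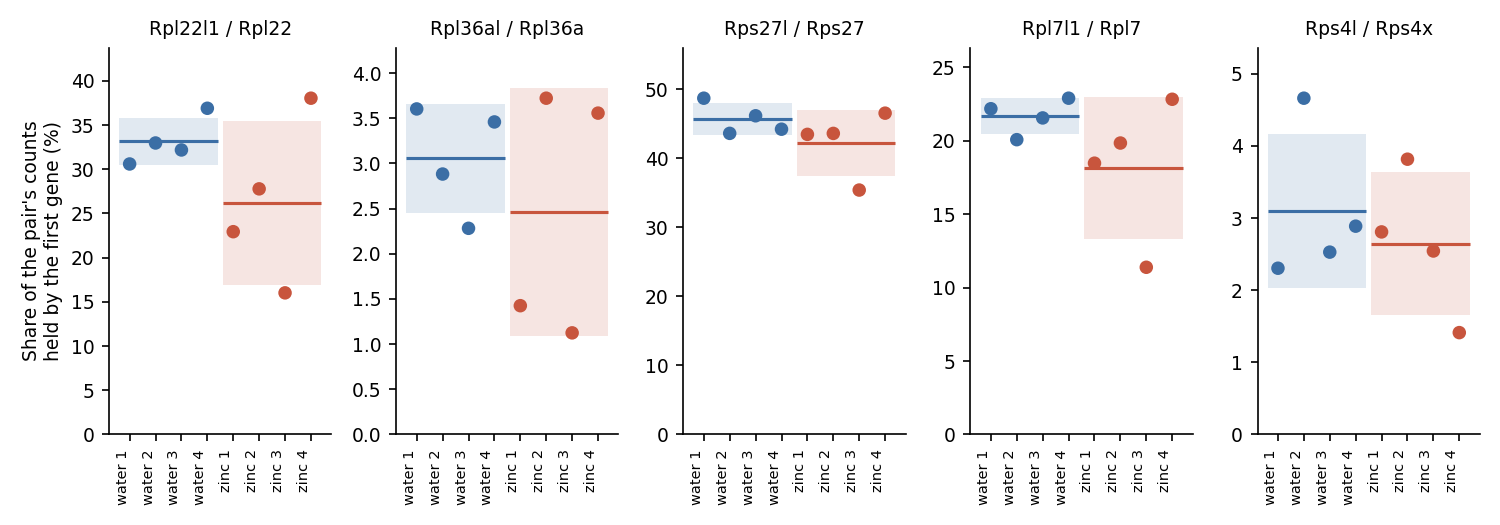
Share of the counts of a pair that the first-named gene held, in percent, for 5 pairs of a paralog and its canonical gene, with 1 point per library and the mean and SD of each group of 4. The groups overlap in every panel, and zinc replicate 3 is the lowest library in the first 4.

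Paralogs known from testis or striated muscle were at or near 0 in these cells. Rpl10l and Rpl39l, expressed in the male germ line, had 0 counts over all 8 libraries, as did the retrogene Rplp1rt. Their counterparts Rpl10 and Rpl39 had 19207 and 3377 counts. Rpl3l, the form of striated muscle, had 1 count against 19473 for Rpl3. The retrogenes Rpl35rt, Rpl27rt, Rps23rg1 and Rps27rt had 5, 3, 2 and 2 counts. The coding sequence of Rps27rt is identical to that of Rps27 over all 252 bases, so the reads of these 2 genes can be told apart only outside it. Of the 10 members that were not tested, 3 had 0 counts, 6 had 1 to 9 (Rpl24 among them), and Rps10 had 24.

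Members deviated together by library, and short genes in general deviated with them. The median deviation of the tested members from their own means over the 8 libraries was -0.23, -0.32, 0.46 and 0.18 on the log2 CPM scale in water replicates 1 to 4, and 0.04, -0.15, 0.25 and -0.23 in zinc replicates 1 to 4. The median over all 1453 genes with under 600 coding bases was -0.08, -0.10, 0.27 and 0.17 with water and -0.01, -0.07, 0.04 and -0.07 with zinc. The signs were the same in all libraries but zinc replicate 1, and members moved further. Water replicate 3 held the highest level of 62 of the 81 members and water replicate 2 the lowest level of 54. In zinc replicate 3 the members stood at 0.25 and short genes as a whole near 0.

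The trend with length was computed in each library as the Spearman rho between gene length and the deviation of log2 CPM, across genes that are not independent of each other. Over all genes with transcript length it was 0.140, 0.254, -0.334 and -0.341 in water replicates 1 to 4 and 0.070, 0.182, 0.0005 and 0.173 in zinc replicates 1 to 4. Water replicates 3 and 4 thus stood apart, with short genes higher there. Within the canonical members with coding length it was 0.204, 0.377, -0.327 and -0.118 with water and 0.050, 0.102, -0.145 and 0.330 with zinc. The 26 canonical members under 400 coding bases had a median deviation of 0.56 in water replicate 3 and -0.36 in water replicate 2, and the 49 longer ones 0.43 and -0.31. RNA quality values were not analysed here, and the part of length in the difference between the groups was not tested beyond the offset given above.

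**Figure D5:**
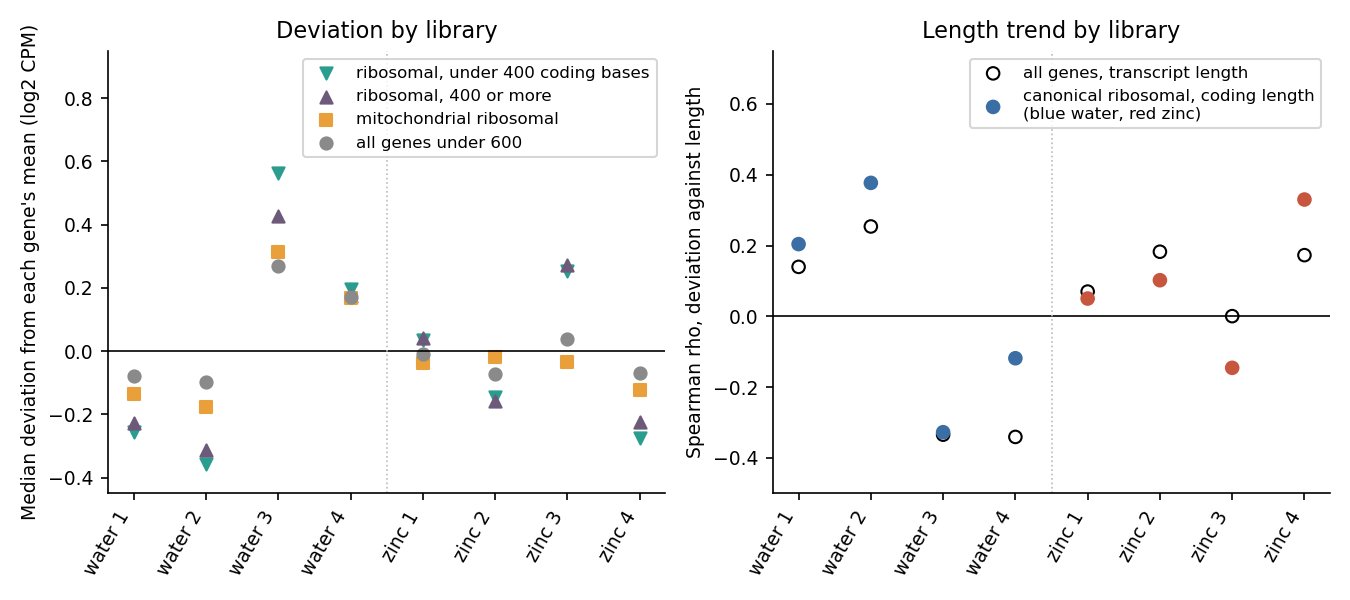
Left, median deviation from each gene's mean over the 8 libraries (log2 CPM) for short and long canonical ribosomal protein genes, mitochondrial ribosomal protein genes and all genes under 600 coding bases. Right, Spearman rho between deviation and length per library, for all genes and within the canonical members; water replicates 3 and 4 are the ones below -0.1 for all genes.

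Other genes around the ribosome were read from the same fit, and 0 genes of these lists were called. Among 22 translation factors, many of which also carry TOP motifs, 12 were higher and 10 lower with zinc, with a median log2 fold change of 0.04. Eif3f, a subunit of an initiation complex, had the smallest p and differed by 0.29 ± 0.135 (SE). Fau and Rack1, the small subunit components outside the symbol rule that were tested, differed by 0.07 and 0.03. Of the mitochondrial ribosomal proteins, 76 were tested, 22 higher and 54 lower, with a median of -0.12, close to that of the cytosolic ones. The median of this list became 0.12 without water replicates 3 and 4.

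Of 32 ribosome biogenesis genes, 10 were higher and 22 lower, with a median of -0.13. Nip7, which acts in the maturation of the large subunit, measured 24.7 ± 5.15 CPM on water and 14.8 ± 3.48 CPM on zinc (mean ± SD, n = 4 each), and Ubtf, the upstream binding factor of ribosomal RNA transcription, had 26.9 ± 3.25 and 39.3 ± 7.22 CPM. These differed by -0.74 ± 0.210 and 0.55 ± 0.159 (SE) on the log2 scale, neither of which passed the adjusted threshold. In both, named for their small p in this list, the groups did not overlap. Such gaps were seen in 3.12% of all genes with zinc below and 2.76% with zinc above. Summed over the list, the level was 965 to 1025 CPM with water and 734 CPM in zinc replicate 3, against 961 to 1043 CPM in the other zinc libraries. Zinc replicate 3 also held the highest member share of all counts, but that share is on another scale than these sums. In summed CPM, members were highest in water replicate 3 (12746 CPM), where the biogenesis sum was 1025 CPM. Zinc replicate 3 came next on that scale with 11103 CPM, against 8183 to 9820 CPM in the other zinc libraries. Among 11 genes that control the ribosomal proteins, mostly of the mTOR pathway, the median was -0.01, with 5 higher and 6 lower. Mtor and its partner Rptor, named for their small p in this list, differed by 0.33 ± 0.156 and 0.28 ± 0.143 (SE) without an adjusted call. In both, every zinc library lay above every water library, as in 2.76% of all genes.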

How the data were processed

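Raw counts were deposited by the authors as 1 table of Ensembl genes, with a column for each of the 8 samples, and groups were taken from the sample labels. The submitters' processing notes name FastQC 0.12.0, STAR 2.7.10a, DESeq2 and mm39 (GRCm39) without their roles. The counting tool, the annotation release and the rule for reads with several matches are not given in the sources used here. Identifiers were matched to GENCODE M39 (54749 matched, 665 not, which held 0.00443% of counts). The members and gene lists were chosen with earlier results of these data known.

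Zinc was compared with water by edgeR 4.0.16 (R 4.3.3; quasi-likelihood F-test, TMM, default expression filter, which kept 10707 genes with 99.89% of counts), with Benjamini-Hochberg adjustment over all tested genes. The biological coefficient of variation was 0.269. Alternatives were DESeq2 1.42.0, DESeq2 size factors, no filter, Defa genes removed, an offset for transcript length and GC content, a replicate block, each library left out, water replicates 3 and 4 left out, and other denominators or lengths for shares. TMM-scaled sizes for the share of counts and coding length for the pairs were added after the data had been seen. Paralog shares used scipy 1.17.1. Coding length was the most frequent one among the consensus (CCDS) transcripts of a gene. Named genes were the members of paralog pairs with counts, Rpsa, the stalk genes, Rps6, Rps27a, the 10 highest members, the 3 of smallest p in each direction, the 3 whose share of member counts varied most and members with fewer than 10 counts, and up to 3 genes of smallest p from each other list. Rpl27 and Rps10 were named after their values were seen. Some genes are not reported here. Scripts were tested on simulated counts. No pair of libraries agreed within sampling noise (chi-square over degrees of freedom at least 6.39), and each counted as 1 replicate.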

Additional observations from a re-analysis of the deposited data

Results flagged for a closer look

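In the zinc group, Rps19bp1 had 6.28 CPM in replicate 4, apart from the 5.05 to 5.23 CPM of the other 3 zinc libraries by Dixon's criterion for 4 values. It was the only one flagged of 76 groups searched, in which chance would flag about 3.8. It is the value by which the groups of this gene overlapped, and its cause was not tested.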

How the results depend on the processing

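No member was called under any alternative. The count of called genes was 0 except with DESeq2, which called 4. The median log2 fold change of members turned from -0.09 to 0.051 with the length and GC offset and to 0.26 without water replicates 3 and 4, and with each library left out it ran from -0.20 to 0.10. Of 30 named genes with a fold change, 11 kept their sign under every alternative, and the smallest adjusted p of any was 0.246. The sign turned with the length and GC offset for Rpl39 (0.051), Rpl10 (0.13), Rpl7 (0.18), Rpsa (0.020), Rplp0 (0.012), Rplp1 (0.017), Rplp2 (0.051), Rps6 (0.073), Rps27a (0.15) and Rps3 (0.081). Without water replicates 3 and 4 it turned for Rpl39 (0.23), Rpl3 (0.073), Rpl10 (0.21), Rps27 (0.21), Rpl7 (0.23), Rps12 (0.37), Rpsa (0.26), Rplp0 (0.22), Rplp1 (0.15), Rplp2 (0.19), Rps6 (0.23), Rps27a (0.38), Rpl12 (0.26), Rps3 (0.35) and Rpl41 (0.23). With each library left out in turn it changed for some genes, whose log2 fold changes then ran as follows: Rpl10 -0.16 to 0.084, Rpl12 -0.28 to 0.031, Rpl36a -0.040 to 0.28, Rpl39 -0.22 to 0.10, Rpl41 -0.38 to 0.035, Rpl7 -0.12 to 0.10, Rpl8 -0.039 to 0.11, Rplp0 -0.20 to 0.066, Rplp1 -0.18 to 0.13, Rplp2 -0.12 to 0.1, Rps12 -0.36 to 0.099, Rps27a -0.24 to 0.12, Rps3 -0.19 to 0.16, Rps3a1 -0.12 to 0.15, Rps4l -0.28 to 0.15, Rps6 -0.21 to 0.032 and Rpsa -0.18 to 0.11. The share of member counts stayed 0.0166 to 0.149 percentage points higher with zinc when single libraries were left out, and was -0.034 on TMM-scaled sizes. The difference in paralog share kept its sign in 4 pairs, with exact permutation p from 0.0571, and for Rps4l ran from -0.84 to 0.072 percentage points. Replicate numbers did not pair the libraries: deviations of same-numbered libraries correlated at -0.027 to 0.027, and with the replicate block 0 genes were called, the median was -0.04 and the paralog p-values were 0.125 to 0.5. The causes of these turns were not tested. Depth limits the members with few counts, where a count of 0 allows up to 0.369 CPM.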
